A study of Mus musculus with 5 samples.

Results

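The 10 antigen presentation genes described here were chosen by their role: the class II chains H2-Ab1, H2-Aa and H2-Eb1, their invariant chain Cd74 and activator Ciita, the class I light chain B2m, the peptide transporter subunits Tap1 and Tap2, and the immunoproteasome chains Psmb8 and Psmb9. All 10 were measured, each by 1 probe set, among 19938 genes on Affymetrix whole-transcript arrays from 5 mouse pancreatic cultures. The PDAC group held 3 cultures of primary pancreatic ductal adenocarcinoma cells with the genotype Pdx-1Cre APCL/+ p53L/L, and the normal ductal group held 2 cultures with the genotype label P53L/L and no floxed Apc allele, of which the title of replicate 1 gives Pdx-1Cre p53L/L. Both groups thus carried floxed p53 alleles, and the Pdx-1 promoter drives Cre throughout the pancreatic lineage, not in duct cells alone. The title of normal ductal replicate 2 named neither Cre nor ductal cells, while its cell type label named normal ductal cells, and the title of PDAC replicate 3 added the words mutant cell. The labels gave no age, strain or H2 haplotype of the mice.

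Cells show fragments of their own proteins on class I molecules, which pair a heavy chain with beta-2-microglobulin. The proteasome cuts the fragments, the TAP transporter moves them into the endoplasmic reticulum, and cytotoxic T cells read the result. In cells exposed to interferon-gamma, the chains encoded by Psmb8 and Psmb9 take the place of the constitutive chains encoded by Psmb5 and Psmb6. Class II molecules pair an alpha with a beta chain around the invariant chain and present material taken up from outside to helper T cells. They are typical of dendritic cells, macrophages and B cells, and epithelial cells, pancreatic duct and tumour cells included, can make them under interferon-gamma through Ciita.

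Array medians lay between 5.90 and 6.02 on the log2 scale. Apc had log2 signals of 8.58 to 9.06 in PDAC cultures, against 9.23 and 9.02 in normal ductal replicates 1 and 2, and did not pass the test (limma adjusted p = 0.59). A probe set for the whole gene need not register the loss of a floxed part of 1 allele. Nothing in the labels ties the cultures to separate animals, and the p-values reflect only how much these 5 cultures vary. The files hold no detection call, so a low signal could not be told from background, and 9521 genes (47.8%) had equal values in at least 2 arrays.

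Over all genes, limma's moderated test with Benjamini-Hochberg adjustment called 11 (0.0552%) at an adjusted p under 0.05, and 0 of the 10 antigen presentation genes were among them. At an unadjusted p under 0.05 it called 1 of the 10, H2-Ab1, which was lower in PDAC. By the same rule 13.4% of all genes were called in either direction, 6.86% as lower and 6.5% as higher, so 1 in 10 lay near the background. The groups did not overlap for 2 of the 10, H2-Ab1 and Tap1, both lower in PDAC, against 26.4% of all genes in either direction, 12.8% lower and 13.6% higher. The median log2 difference of PDAC from normal ductal cultures was -0.14 over the 10 genes and 0.01 over all genes. For the 10 genes it was -0.28, -0.05 and -0.32 without PDAC replicate 1, 2 or 3, and -0.04 and -0.37 without normal ductal replicate 1 or 2.

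**Figure D1:**
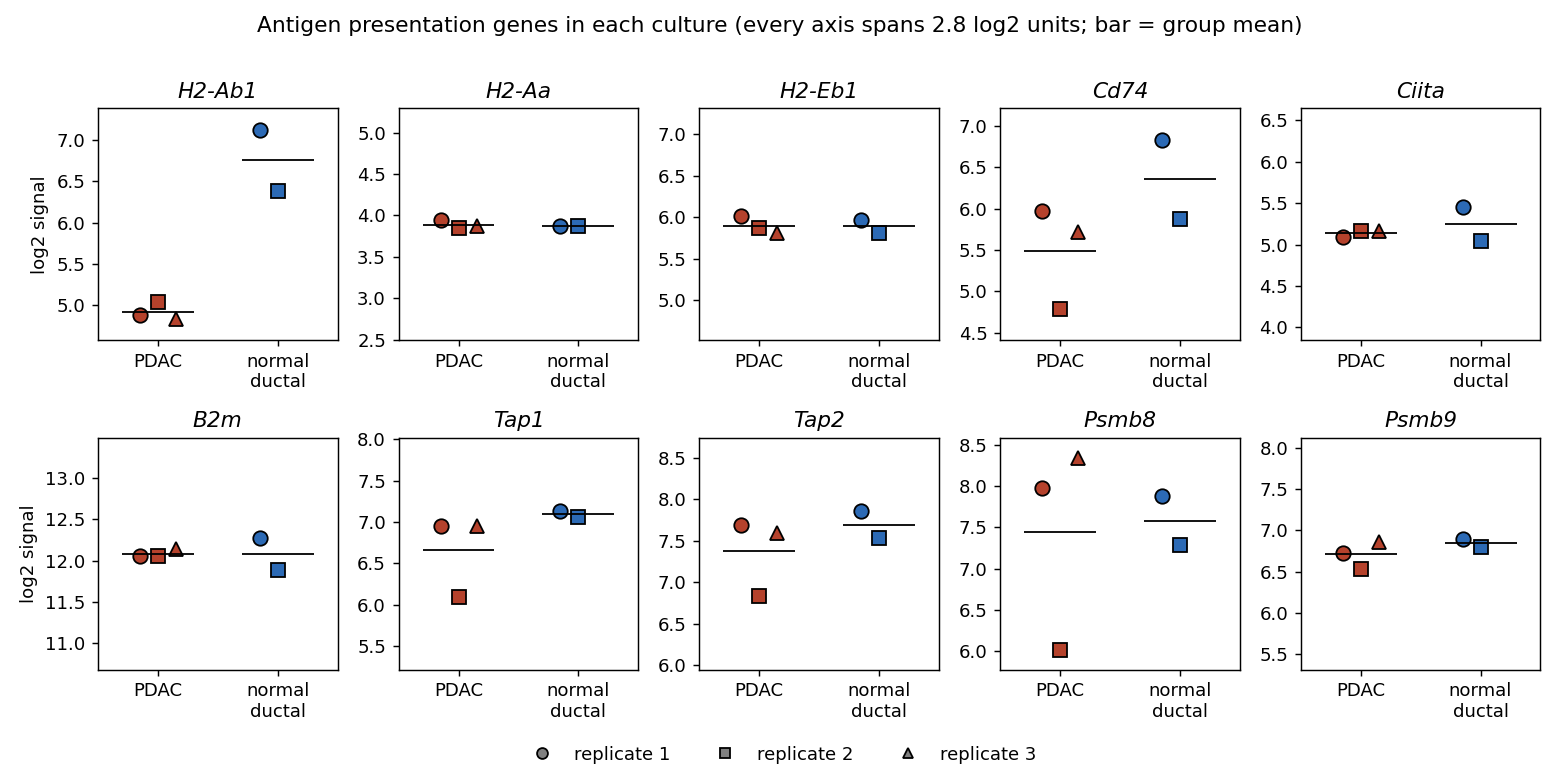
Log2 signal (vertical axes, all of equal span) of each antigen presentation gene in the 3 PDAC (red) and 2 normal ductal (blue) cultures, with symbols for the replicate and bars for group means. H2-Ab1 lies between 4.84 and 5.04 in PDAC and at 7.12 and 6.38 in normal ductal cultures, and PDAC replicate 2 stands below the other PDAC cultures for Cd74, Tap1, Tap2 and Psmb8.

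Among the class II genes, the groups parted for the beta chain of I-A alone. H2-Ab1 (chromosome 17, 34263227 to 34269418 in GRCm38, the assembly also called mm10) had log2 signals of 4.88, 5.04 and 4.84 in PDAC replicates 1, 2 and 3, against 7.12 and 6.38 in normal ductal replicates 1 and 2. The PDAC cultures lay within 0.20 of each other, and both normal ductal cultures stood above them, replicate 2 by 1.34 and replicate 1 by 2.08. The log2 difference of PDAC minus normal ductal was -1.83 (SE 0.25, 95% interval -2.54 to -1.12), a signal 3.56-fold higher in normal ductal cultures, with unadjusted p = 0.00212 and adjusted p = 0.166 by limma over all genes. In RNA from whole cultures, fewer cells that make a transcript and less of it per cell cannot be told apart.

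H2-Ab1 passed the threshold where either normal ductal culture was left out. Without normal ductal replicate 1 the log2 difference was -1.46 with a limma adjusted p = 0.0336, and without replicate 2 it was -2.20 with adjusted p = 0.0210. In both fits the lone normal ductal array is assumed to vary like the PDAC arrays. Those fits also called 1287 and 990 genes over the whole array. Without a PDAC culture the adjusted p lay between 0.242 and 0.400.

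The probe sets of the other class II chains did not show the difference of H2-Ab1. H2-Aa, the alpha chain that pairs with it, had log2 signals of 3.94, 3.85 and 3.88 in PDAC replicates 1 to 3 and of 3.88 in both normal ductal cultures, the value in PDAC replicate 3 and the normal ductal cultures being the same number. H2-Eb1, the beta chain of I-E, had 6.02, 5.87 and 5.81 in PDAC cultures, against 5.96 and 5.81 in normal ductal cultures. The groups overlapped for both genes, with log2 differences of 0.01 (95% interval -0.09 to 0.11) for H2-Aa and 0.01 (-0.24 to 0.26) for H2-Eb1. Both signs turned when single cultures were left out. H2-Eb2, a further class II gene of the same cluster, had 1 value, 4.41, in all 5 arrays. The haplotype of the cultures is unknown, and whether these level probe sets could register a change in them was not tested.

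Cd74, the chaperone that fills the class II groove before peptide, had log2 signals of 5.97, 4.79 and 5.72 in PDAC replicates 1, 2 and 3, against 6.83 and 5.88 in normal ductal replicates 1 and 2. Normal ductal replicate 1 was the highest and PDAC replicate 2 the lowest, and normal ductal replicate 2 lay among the PDAC values. The log2 difference was -0.86 (SE 0.51, 95% interval -2.30 to 0.58, limma adjusted p = 0.55). It was -0.39 without normal ductal replicate 1 and -0.51 without PDAC replicate 2.

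Ciita, the coactivator on which class II transcription depends, had 5.10, 5.16 and 5.16 in PDAC cultures, against 5.45 and 5.04 in normal ductal cultures. Its highest value was again in normal ductal replicate 1, and replicate 2 was the lowest of the 5. The log2 difference was -0.11 (95% interval -0.50 to 0.28, limma adjusted p = 0.731), and it was 0.10 without normal ductal replicate 1 and -0.31 without replicate 2. In 3 of the 5 class II genes, H2-Ab1, Cd74 and Ciita, normal ductal replicate 1 was the highest of all arrays, as it was for 4 of the 5 class I genes (B2m, Tap1, Tap2 and Psmb9) and for 26.9% of all genes.

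RefSeq promoter windows (250 bases before to 50 after the gene start) were found for 6 of the 10 genes, but not for H2-Ab1, Cd74, Ciita and Tap2. Those of the class II genes H2-Eb1 and H2-Aa are shown because class II promoters are known to share an array of X and Y boxes. Capitals mark matches to CCAAT (the Y box core), an X1 box core (AG and AC, then ATG, each spaced by 2 free bases) and TGACG (the core of sites found in X2 boxes), searched on both strands. The 250 bases before the start are printed, 5′ to 3′ on the strand of the gene, as chr17:34305617-34305866 on the plus strand for H2-Eb1 and chr17:34287824-34288073 on the minus strand for H2-Aa.
H2-Eb1: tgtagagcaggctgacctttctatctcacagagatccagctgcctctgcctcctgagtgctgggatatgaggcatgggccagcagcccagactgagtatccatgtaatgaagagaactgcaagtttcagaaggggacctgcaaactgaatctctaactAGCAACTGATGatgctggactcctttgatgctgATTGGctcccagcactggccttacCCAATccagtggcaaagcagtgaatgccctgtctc
H2-Aa: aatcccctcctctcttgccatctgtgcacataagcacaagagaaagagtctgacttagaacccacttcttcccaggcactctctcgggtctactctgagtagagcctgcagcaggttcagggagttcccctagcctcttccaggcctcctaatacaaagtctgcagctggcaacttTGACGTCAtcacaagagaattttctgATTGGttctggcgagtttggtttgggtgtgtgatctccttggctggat

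In H2-Eb1 the X1 core lay at positions -92 to -82, counted from the gene start, and was followed by 2 CCAAT matches on opposite strands, with no overlap. In H2-Aa a pair of TGACG matches on opposite strands overlapped by 2 bases, from -74 to -67, and 1 CCAAT match followed. Of 32851 windows of the same length, 37.4% held CCAAT, 3.09% the X1 core and 20.8% TGACG. These letters describe the reference sequence. Within each gene, the signals given above spanned 0.09 for H2-Aa and 0.20 for H2-Eb1 among the PDAC cultures, and the normal ductal values lay inside those spans for both.

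Among the class I genes, PDAC replicate 2 stood apart from the other PDAC cultures for Tap1, Tap2 and Psmb8, as it did for Cd74, but not for B2m, and for Psmb9 by 0.19 only. B2m (chromosome 2, 122147687 to 122153082), the light chain of all classical class I molecules, had log2 signals of 12.05, 12.05 and 12.14 in PDAC cultures, against 12.28 and 11.89 in normal ductal cultures. The PDAC values lay between the normal ductal ones. The log2 difference was -0.004 (95% interval -0.38 to 0.37, limma adjusted p = 1.0), and its sign turned with arrays at a common median (0.09).

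Tap1, a subunit of the peptide transporter, had 6.95, 6.10 and 6.95 in PDAC replicates 1, 2 and 3, against 7.13 and 7.06 in normal ductal cultures. All PDAC values were below both normal ductal values, replicates 1 and 3 by 0.11 or more and replicate 2 by 0.96. The log2 difference was -0.43 (SE 0.33, 95% interval -1.34 to 0.48, limma adjusted p = 0.571), and -0.15 without PDAC replicate 2. Tap2, the other subunit, had 7.70, 6.83 and 7.60 in PDAC cultures, against 7.85 and 7.53 in normal ductal cultures, and PDAC replicate 2 was again the lowest. The groups overlapped for Tap2, with a log2 difference of -0.32 (SE 0.33, 95% interval -1.25 to 0.61, limma adjusted p = 0.679) and -0.05 without PDAC replicate 2.

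Of the 10 genes, Psmb8 had the widest spread within a group. Its log2 signals were 7.98, 6.02 and 8.34 in PDAC replicates 1, 2 and 3, against 7.87 and 7.28 in normal ductal replicates 1 and 2. PDAC replicates 1 and 3 lay above both normal ductal cultures and replicate 2 lay 1.26 below the lower of them. The log2 difference of the groups was -0.13 (SE 0.84, 95% interval -2.49 to 2.23, limma adjusted p = 0.977), and it was 0.58 without PDAC replicate 2, with an adjusted p = 0.667. Psmb9 had 6.73, 6.53 and 6.86 in PDAC cultures, against 6.90 and 6.80 in normal ductal cultures, with PDAC replicate 2 the lowest by a smaller step. Its log2 difference was -0.14 (95% interval -0.48 to 0.20, limma adjusted p = 0.612).

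Of the 10 genes, 4 (Cd74, Tap1, Tap2 and Psmb8) were lower in PDAC replicate 2 than in both other PDAC cultures by more than 0.5 on the log2 scale, with gaps of 0.93, 0.85, 0.76 and 1.96. The same held for 1.98% of all genes, while 3.07% stood that far down in PDAC replicate 1 and 4.98% in replicate 3. The measure was chosen after the values were seen and compares single arrays, so it carries no test. H2-Ab1 went the other way in this culture, at 5.04 the highest of the PDAC values.

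Of the 10 genes, 7 lie on chromosome 17 within 135 kb, from 34182030 in Psmb9 to 34316674 in H2-Eb1. The low values in PDAC replicate 2 were compared with the genes around them. Of 45 other measured genes within 500 kb of that stretch and on none of the lists, 1 (AA388235, named after its value was seen) was lower in PDAC replicate 2 by more than 0.5, against 3 of the 7. Their median deviation of PDAC replicate 2 from the mean of the other PDAC cultures was -0.02, against -0.26 for the 7. Between PDAC and normal ductal cultures, these neighbours had a median log2 difference of 0.16, with a range of -0.51 to 0.64. Genes of the lists were left out of the neighbours wherever they lie. Among the genes left out was Tapbp (given below), which was lower in PDAC replicate 2 than in both other PDAC cultures by 0.73. H2-DMa, H2-Oa, H2-Ob and H2-Eb2 were left out as well, and are named with their values known. In PDAC replicate 2 they deviated by 0.02, -0.008, -0.08 and 0.0 from the mean of the other PDAC cultures.

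Psmb9 and Tap1 are read in opposite directions from starts 225 bases apart. The interval between them is shown because a single stretch of DNA lies before both genes, as chr17:34187331-34187555 on the strand of Tap1, with matches to CCAAT and TGACG in capitals. The 250 bases before Psmb8 (chr17:34197945-34198194, plus strand) are set beside it, with the letters of a STAT-type site, TTCNNNGAA, in capitals.
Psmb9 to Tap1: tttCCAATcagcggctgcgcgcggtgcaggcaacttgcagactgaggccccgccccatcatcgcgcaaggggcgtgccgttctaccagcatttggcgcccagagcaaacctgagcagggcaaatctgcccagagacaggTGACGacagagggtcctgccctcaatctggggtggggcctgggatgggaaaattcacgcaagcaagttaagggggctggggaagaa
Psmb8: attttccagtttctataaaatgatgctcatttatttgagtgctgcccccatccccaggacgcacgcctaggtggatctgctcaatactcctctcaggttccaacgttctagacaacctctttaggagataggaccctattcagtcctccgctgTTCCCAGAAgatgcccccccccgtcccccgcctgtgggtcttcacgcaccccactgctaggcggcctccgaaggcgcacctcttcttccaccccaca

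The CCAAT match lay at -8 to -4 from the start of Psmb9 and at -222 to -218 from that of Tap1, and no matches overlapped. TTCNNNGAA occurred in 8.30% of the 32851 windows, and an interferon-stimulated element, a pair of GAAA spaced by 2 free bases, in 3.44%. Among the 6 windows that element was found in B2m alone, at -139 to -130. In PDAC replicate 2, Tap1 lay 0.85 and Psmb9 lay 0.26 below the mean of the other PDAC cultures. In the remaining cultures of both groups, Tap1 ran from 6.95 to 7.13 and Psmb9 from 6.73 to 6.90.

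The remaining steps of the class I route were followed in fixed lists. All 6 peptide loading genes were lowest in PDAC replicate 2 among the PDAC cultures, as were 3 of 4 immunoproteasome partners and 2 of 3 constitutive chains. The same held for 19.7% of all genes (27.4% were lowest in PDAC replicate 1 and 29.7% in replicate 3). The gap passed 0.5 for Tapbp (tapasin, which holds class I molecules at the transporter), at 10.01, 9.29 and 10.72 in PDAC cultures, against 10.44 and 9.28 in normal ductal cultures. It also passed 0.5 for Psme2, a chain of the proteasome activator, at 9.14, 8.52 and 9.34, against 9.29 and 8.85. Normal ductal replicate 2 was as low as PDAC replicate 2 for Tapbp, whereas PDAC replicate 2 lay below the lower normal ductal culture by 0.33 for Psme2. Tapbp and Psme2 were named after their values were seen.

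Between the groups, limma called 0 of the peptide loading genes at an adjusted p under 0.05. Before adjustment it called 1 higher and 1 lower gene, against 6.5% and 6.86% of all genes. Calr, the chaperone calreticulin, had a log2 difference of 0.28 (SE 0.07, adjusted p = 0.251), with all PDAC cultures above the normal ductal ones. Tapbpl, a relative of tapasin that edits peptides, had -0.91 (SE 0.31, adjusted p = 0.361), at 7.16, 6.94 and 7.53 in PDAC cultures, against 8.48 and 7.76 in normal ductal cultures. The list median was 0.04.

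**Figure D2:**
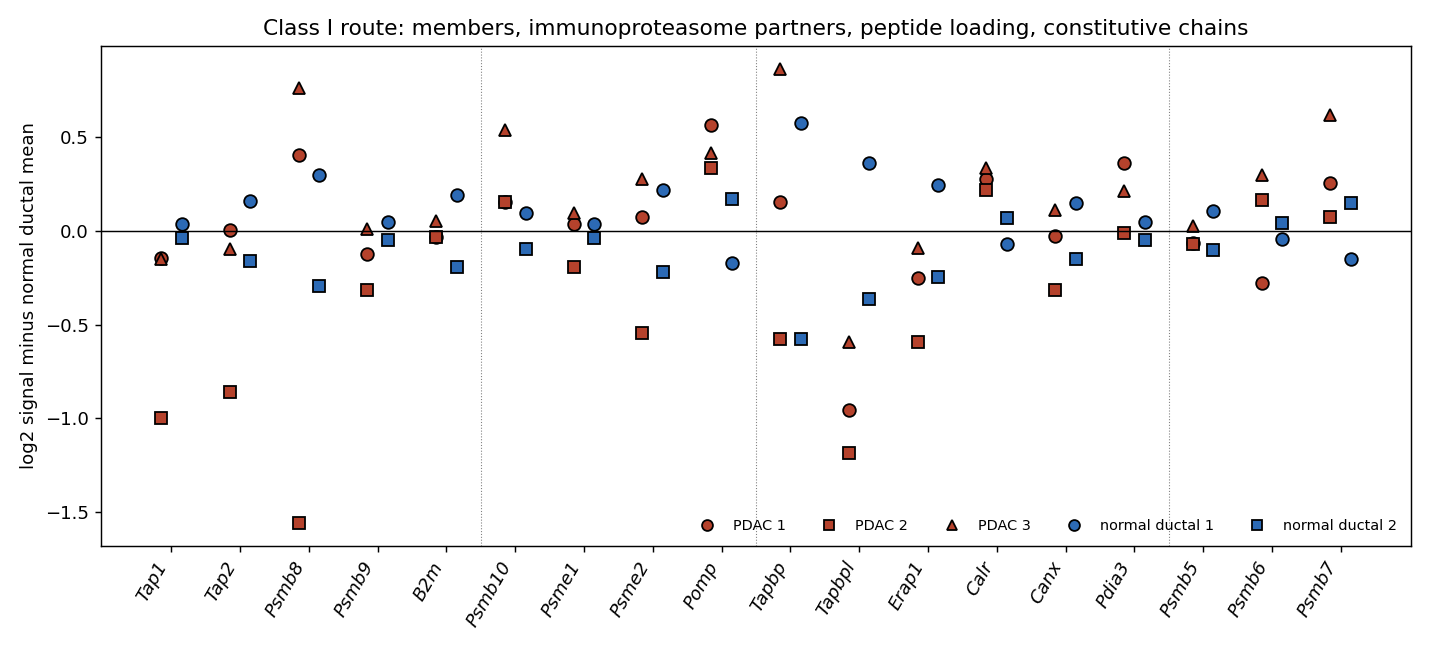
Log2 signal of each culture minus the mean of the normal ductal cultures (vertical axis) for genes of the class I route, with dotted lines between the antigen presentation genes, the immunoproteasome partners, the peptide loading genes and the constitutive chains. PDAC replicate 2 (red squares) is the lowest point for Tap1, Tap2, Psmb8, Psmb9, Psme1, Psme2, Tapbpl, Erap1 and Canx.

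The immunoproteasome partners had a median log2 difference of 0.13, with 0 of 4 called over all genes. At an unadjusted p under 0.05 by limma, 1 was higher (6.5% of all genes). That was Pomp, which helps proteasomes assemble, at 0.44 (SE 0.15, adjusted p = 0.350). Psmb10, the third immunoproteasome chain, had 8.50, 8.50 and 8.88 in PDAC cultures, against 8.44 and 8.25 in normal ductal cultures (0.28, SE 0.17, adjusted p = 0.55), and was not low in PDAC replicate 2. Psmb5, the constitutive chain that Psmb8 replaces, had 9.37, 9.36 and 9.46, against 9.53 and 9.32. Psmb6, which Psmb9 replaces, had 10.99, 11.43 and 11.56 in PDAC cultures, against 11.23 and 11.31, and Psmb7 11.26, 11.08 and 11.63, against 10.86 and 11.16. Of the 3 constitutive chains, 0 were called at either threshold. Psmb5 and Psmb7 were lowest among the PDAC cultures in replicate 2, by 0.01 and 0.18, and Psmb6 was not.

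Class I heavy chains were measured in part, since 8 of 15 listed genes had a probe set with 1 symbol. The classical heavy chains H2-K1 and H2-D1 were among the 7 without one, so the values below do not cover them. H2-Q4 had 4.77, 4.70 and 6.39 in PDAC cultures, against 8.27 and 7.38 in normal ductal cultures (-2.54, SE 0.69, limma adjusted p = 0.295). It was the 1 gene of the list called at an unadjusted p under 0.05, against 13.4% of all genes in either direction. Class I heavy chain genes are close copies of each other, so a probe set named for H2-Q4 may also catch its relatives. H2-T10 had -0.36 (SE 0.21, adjusted p = 0.55), and the list median was -0.10. Another heavy chain gene, H2-M3, named after its value was seen, had 7.74, 6.15 and 7.83 in PDAC cultures, against 7.22 and 6.75. Of the 8 measured heavy chains it was the 1 gene more than 0.5 below both other PDAC cultures in replicate 2.

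Class II peptide loading genes had a median log2 difference of -0.12, with 7 of 10 listed genes measured and 0 called over all genes. Ctsl, an endosomal protease that trims the invariant chain in some cells, was lower in all PDAC cultures, at 10.97, 11.15 and 10.57, against 11.68 and 12.07 (-0.98, SE 0.24, adjusted p = 0.258). Lgmn, another endosomal protease, was higher in all PDAC cultures, with 0.56 (SE 0.16, adjusted p = 0.306). These were the 2 genes of the list at an unadjusted p under 0.05 by limma, against 13.4% of all genes in either direction. The editor chain H2-DMa, named after its value was seen, had 5.43, 5.47 and 5.47, against 5.47 and 5.69.

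The factors that bind class I and class II promoters (8 measured) had a median log2 difference of 0.15, with 0 called over all genes. At an unadjusted p under 0.05 by limma, 1 was higher (6.5% of all genes). That was Nfyc, a subunit of the factor that binds CCAAT, with 0.49 (SE 0.15, adjusted p = 0.324), and Nfya, another subunit, had 0.50 (SE 0.22, adjusted p = 0.470). Nlrc5, the class I counterpart of Ciita, had 9.07, 9.04 and 9.12 in PDAC cultures, against 9.21 and 8.96 in normal ductal cultures, with a difference of -0.01 (95% interval -0.31 to 0.30).

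Interferon-gamma signalling genes (11 of 12 measured) had a median log2 difference of -0.09, with 0 called over all genes. Before adjustment, 1 was higher and 1 lower, against 6.5% and 6.86% of all genes. Ifngr1, the chain of the receptor that binds the cytokine, had 9.25, 9.30 and 9.51 in PDAC cultures, against 10.25 and 9.93 in normal ductal cultures (-0.74, SE 0.15, adjusted p = 0.218). Socs3, a feedback inhibitor of cytokine receptors, had 1.10 (SE 0.32, adjusted p = 0.309). Irf1, a transcription factor that interferon-gamma induces, had 7.98, 7.76 and 8.45, against 7.79 and 7.58 (0.38, adjusted p = 0.55). Irf1 was lowest among the PDAC cultures in replicate 2, by 0.22, and its values overlapped between the groups. The 1 gene of the list more than 0.5 below both other PDAC cultures there was the kinase gene Jak2, named after its value was seen, at 9.31, 8.14 and 9.04, against 9.12 and 9.30.

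Costimulation and checkpoint ligands, the surface proteins that accompany antigen to the T cell, had the lowest median of the pathway lists, -0.88, with 5 of 9 lower in all PDAC cultures (12.8% of all genes) and 4 lower at an unadjusted p under 0.05 (6.86%). Limma called 0 over all genes, and the median was -0.49 without normal ductal replicate 1. Cd40 had 5.99, 5.91 and 5.72 in PDAC cultures, against 9.10 and 7.63 in normal ductal cultures (-2.49, SE 0.49, adjusted p = 0.214), and Cd80 had 5.23, 5.48 and 4.85, against 6.86 and 8.82 (-2.65, SE 0.67, adjusted p = 0.279). The other two were the adhesion ligand Icam1 (-2.45) and the checkpoint ligand Cd274 (-0.88), both picked after seeing their values. For Cd40, Icam1 and Cd274, as for H2-Ab1, normal ductal replicate 1 was the highest array, and for Cd80 it was replicate 2.

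**Figure D3:**
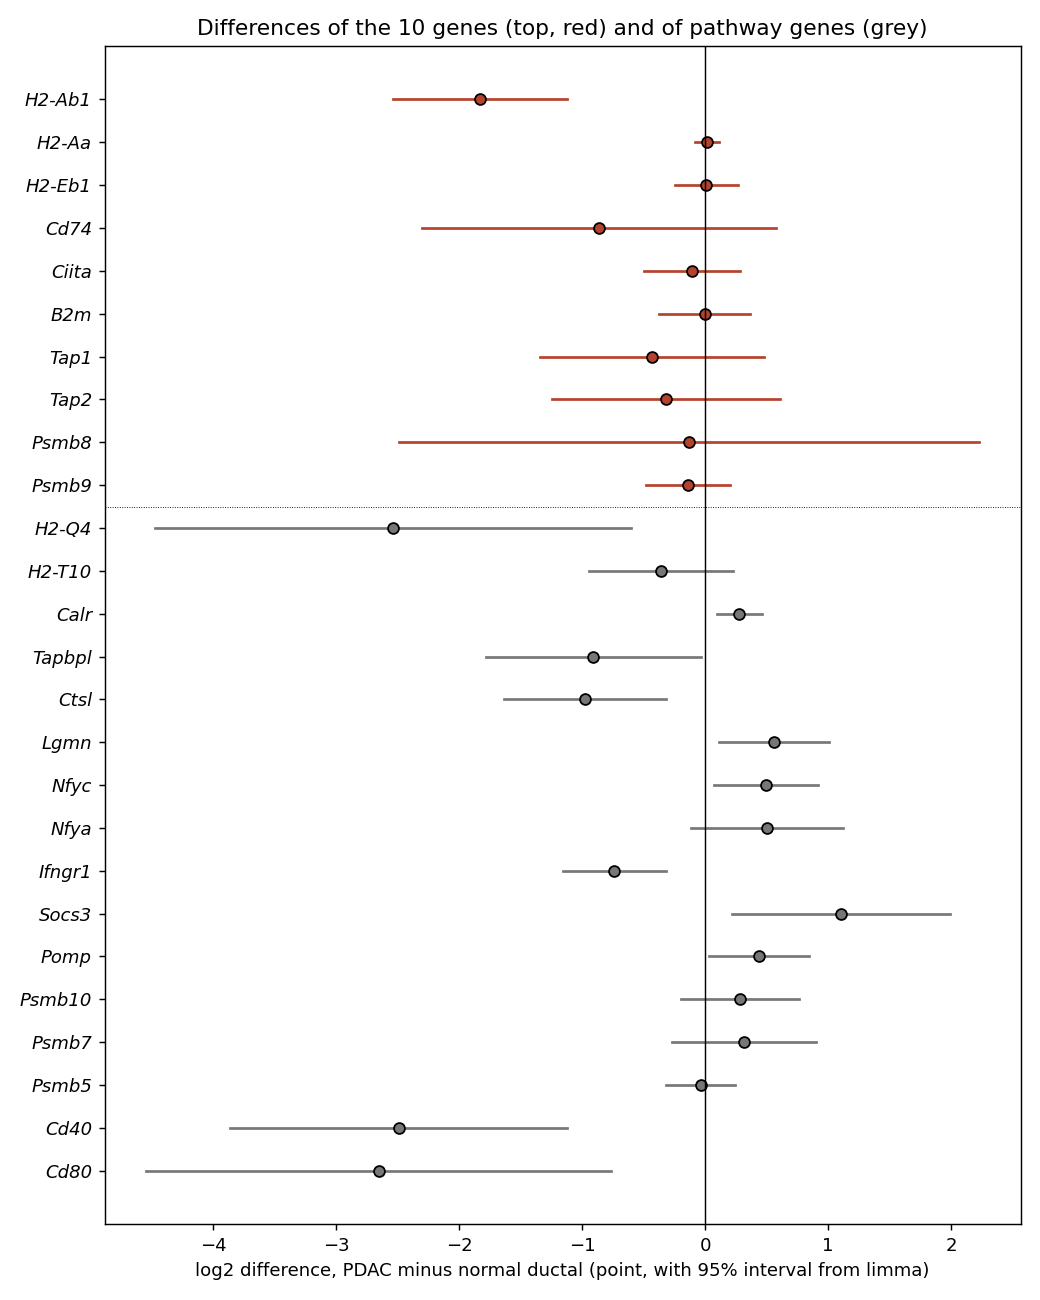
Log2 difference of PDAC minus normal ductal cultures (horizontal axis) with its 95% interval, not adjusted for the number of genes, for the 10 antigen presentation genes (red) and the genes named from each pathway list (grey). Among the red intervals, that of H2-Ab1 (-2.54 to -1.12) lies wholly below 0, and that of Psmb8 (-2.49 to 2.23) is the widest.

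Markers of other cells were set beside these values. Antigen-presenting leukocyte markers (16 of 17 measured) had mean log2 signals of 5.28, 4.98 and 5.11 in PDAC replicates 1, 2 and 3, against 5.37 and 5.78 in normal ductal replicates 1 and 2. Ptprc, the gene of the pan-leukocyte protein CD45, had 4.59, 4.59 and 4.42 in PDAC cultures, against 4.59 in both normal ductal cultures. Lyz2 had 4.48, 4.08 and 4.76 in PDAC cultures, against 5.67 and 8.52 in normal ductal replicates 1 and 2, and Cd14 had 5.82, 6.35 and 7.92, against 9.52 and 9.43. Fcer1g of the same list, named after its value was seen, ran the other way in 1 culture, at 9.74, 4.79 and 5.39 in PDAC replicates 1, 2 and 3, against 5.16 and 6.36, and it enters the list mean of PDAC replicate 1. Of the list, 5 were lower in all PDAC cultures (12.8% of all genes), 1 (Cd14) at an unadjusted p under 0.05 (6.86%), and limma called 0 over all genes. H2-Ab1 and Cd74 were highest in normal ductal replicate 1, as were 4 of the 16 measured genes of the list, Cd14 among them, and 26.9% of all genes. Lyz2 and the list mean were highest in normal ductal replicate 2. T and NK cell markers had list means between 4.35 and 4.56 in all cultures, with 0 called at either threshold, and Ifng itself lay between 5.52 and 5.75.

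The groups also parted in their epithelial marker signals. Whether the cells themselves or the mix of cells differed was not tested. The 11 epithelial markers had list means of 6.25, 6.63 and 8.25 in PDAC cultures, against 11.19 and 10.84 in normal ductal cultures. All 11 were lower in every PDAC culture (12.8% of all genes), and 9 at an unadjusted p under 0.05 by limma (6.86% of all genes). Duct markers had 6.22, 7.12 and 8.53, against 9.13 and 8.95. PDAC replicate 1 thus had the lowest list mean, with Krt19 at 6.47 and Sox9 at 9.41, while Onecut1 was lowest in PDAC replicate 2 (5.22). Fibroblast markers had 8.50, 8.44 and 8.17, against 6.37 and 8.80. Acinar markers had 5.62 to 5.70 in PDAC cultures, against 5.45 and 7.68, islet markers 5.46 to 5.55, against 6.59 and 8.45, and endothelial markers 5.21 to 5.22, against 5.79 and 7.09 in normal ductal replicates 1 and 2. Mesothelial markers had 5.55, 6.05 and 8.55, against 6.81 and 7.35. At an unadjusted p under 0.05, 2 of 9 duct, 3 of 7 islet and 2 of 8 endothelial markers were lower in PDAC, against 6.86% of all genes. The fibroblast, acinar and mesothelial lists had 0, and limma called 0 of these lists over all genes. The part of these markers in the differences of H2-Ab1, Cd74, Cd40 and Cd80 was not tested. The difference of H2-Ab1 without normal ductal replicate 1 and without replicate 2 stands above (-1.46 and -2.20).

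**Figure D4:**
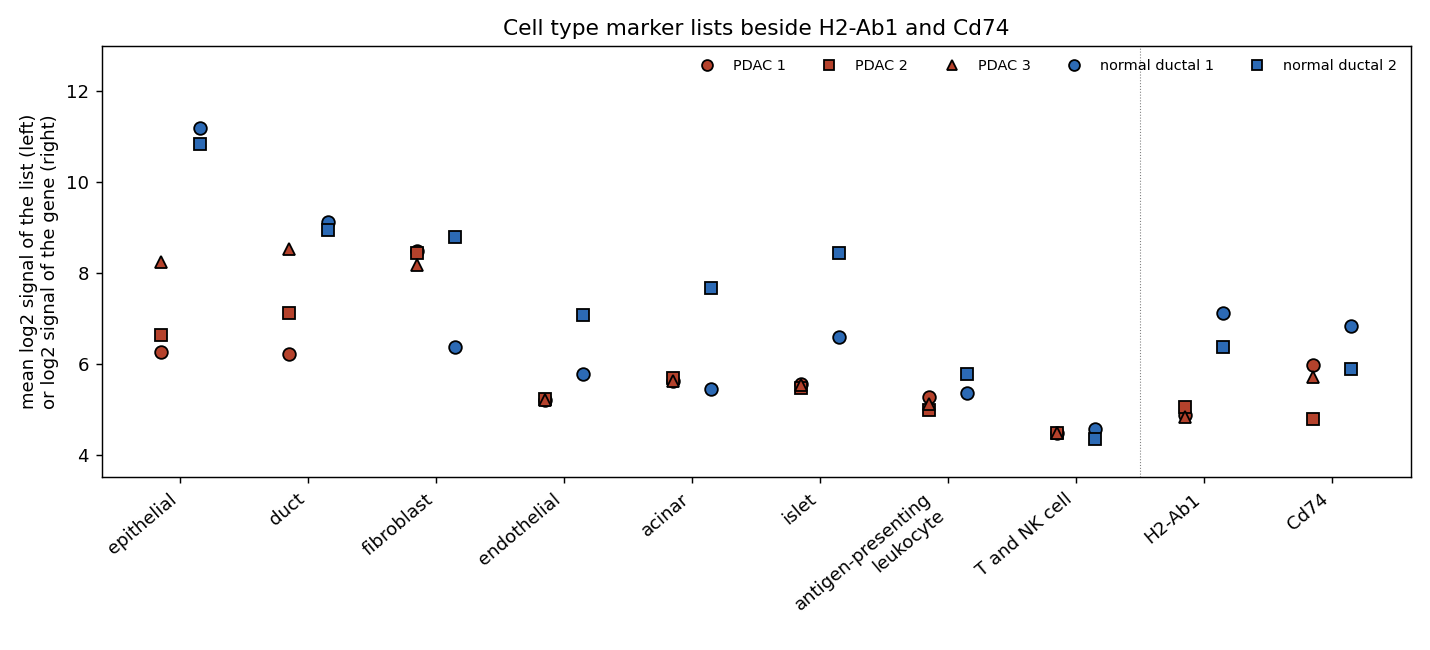
Mean log2 signal of each cell type marker list in each culture (left of the dotted line) and log2 signal of H2-Ab1 and Cd74 (right). The epithelial list means of the PDAC cultures (6.25 to 8.25) lie below those of the normal ductal cultures (10.84 and 11.19), and normal ductal replicate 2 (blue squares) is the highest for the fibroblast, endothelial, acinar, islet and leukocyte lists.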

How the data were processed

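The authors deposited log2 signals of 35556 probe sets on 5 arrays (RNA biotin-labelled with whole-transcript kits, per the labels' protocols), with values from 0.727 to 13.9. They used Transcriptome Analysis Console (version 1.0.0.234) and mm10, per the submitters' processing notes. How the background was corrected and the arrays normalized is not stated in the sources used here, and the base of the logarithm was read from the range of the values. Per the labels' protocols, cells had undergone fewer than 6 passages.

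Probe sets with exactly 1 gene symbol in the platform annotation (21789, of which 21698 matched RefSeq genes of GRCm38.p6) were kept, and the one with the highest mean was used for each of 19938 genes. The number of arrays limits the precision. Groups came from the titles. PDAC was compared with normal ductal with limma 3.58.1 in R 4.3.3 (lmFit, eBayes with an intensity trend, two-sided, 3 residual and 0.91 prior degrees of freedom), adjusted over all genes by Benjamini-Hochberg. The test was checked on simulated data. Members and lists were chosen with earlier results of these data known, so lists are given as counts and medians without a test. Named from each pathway list are the 2 genes with the smallest p, with Nlrc5, Irf1, Psmb5, Psmb6 and Psmb7 by a fixed rule. The cell type lists are given mainly as means, and the markers named from them do not all follow this rule. H2-Eb2 and other genes were picked with their values known, or are cell type markers. Sequences are RefSeq's (GRCm38.p6). Tables and figures used Python 3.11.15, pandas 2.3.3 and matplotlib 3.10.9.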

Additional observations from a re-analysis of the deposited data

How the results depend on the processing

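H2-Ab1 was lower in PDAC under the 13 alternatives that could give it a value, by log2 differences of -2.20 to -1.46, and it was left out without the lowest 50% of genes. The number of the 10 genes at an adjusted p under 0.05 was 0 in the main setting and between 0 and 1 with single cultures left out, and at an unadjusted p it was 1, with 1 to 3 without single cultures, 0 without the lowest 50% of genes and 2 (H2-Ab1 and Cd74) with the replicate number as a block. The replicate block uses numbers that pair nothing known: deviations of same-numbered cultures correlated at -0.18 and -0.04, and PDAC replicate 3 has no partner. It called 0 genes higher and 0 lower over the whole array, against 1 and 10 without it. The other counts of higher and lower genes were 23 and 57 at a common array median, 10 and 32 under quantile normalization, 0 and 3 with array weights, 3 and 10 without the lowest 25% and 15 and 27 without the lowest 50% of genes, and ran from 0 to 980 and 0 to 865 without single cultures. Over the fixed lists the calls numbered 0, but 2 under quantile normalization, 5 at a common median and 4 without the lowest 50% of genes, all from the epithelial markers Cldn4, Cldn7, Esrp1, Grhl2 and St14, and 0 to 23 without single cultures (21 to 53 at an unadjusted p, against 31). Small differences turned their sign: B2m at a common median (0.090), and, without single cultures, B2m (-0.20 to 0.19), Ciita (-0.31 to 0.10), H2-Aa (-0.014 to 0.033), H2-Eb1 (-0.065 to 0.085) and Psmb8 (-0.58 to 0.58); the cause was not tested. Cd74, Tap1, Tap2 and Psmb9 kept their direction in the alternatives run, and of 263 list medians 242 moved by less than the spread between cultures. Scaling moved the median log2 difference of all genes to 0.04 (quantile) and 0.10 (common median). Signal over background could not be assessed.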
